A study of Mus musculus with 6 samples.

Results

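The lysosomal cathepsins were followed in mouse liver, in RNA read on 6 Affymetrix U74Av2 arrays with 1 mouse each; the animals were male C57BL/6J of wild type, 8 to 10 weeks old. The genes are Ctsa, Ctsb, Ctsc, Ctsd, Ctse, Ctsh, Ctsk, Ctsl, Ctss and Ctsz. They were taken by symbol, with no cut on their values, though earlier results of these data were known. All 10 were on the array, out of 8251 named genes, and they carried 17 of its 12488 probe sets, sets of short oligonucleotides that each report a transcript. In 3 mice, numbered 1, 12 and 3, surgeons had ligated and cut the common bile duct 1 day before (bile duct ligation, BDL), which blocks the outflow of bile. The other 3 mice, numbered 1, 2 and 3, had the same opening of the abdomen without ligation (sham) and are the controls. Both groups were unmodified wild-type mice operated on under methoxyflurane anesthesia.

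Cathepsins are proteases of the lysosome, the acid compartment in which cells break down proteins. Most are cysteine proteases of the papain family, while Ctsd and Ctse are aspartic proteases and Ctsa is a serine carboxypeptidase. They are made as inactive precursors, are carried to the lysosome largely by mannose 6-phosphate receptors, and are held in check outside it by cystatins. In the liver, hepatocytes and the resident macrophages, the Kupffer cells, are both rich in lysosomes, and cathepsin B is well known from work on hepatocyte death caused by bile acids.

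The comparison asked how cathepsin transcripts differed in the liver 1 day after BDL from those after sham surgery. Ctss is a cysteine protease of antigen-presenting cells that trims the invariant chain of MHC class II. It was the only one of the 10 genes whose BDL signals all lay above its sham signals, beside 6.32% of all genes tested. Its mean log2 difference was 0.92 (limma SE 0.33), 1.89-fold. Ctsb, Ctsd and Ctsh, the cysteine and aspartic enzymes of general lysosomal protein breakdown, differed by -0.01, 0.06 and -0.04 on the same scale. The 3 probe sets of Ctsc, the dipeptidyl peptidase that activates serine proteases of granulocytes, all had lower means in BDL, with overlapping groups. No cathepsin passed the threshold over all probe sets: the limma adjusted p was 0.832 to 0.997 for the 16 cathepsin probe sets tested.

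Array-wide facts limit these values. The 2% trimmed mean was 1501 on each array, and limma called 0 of the 9542 probe sets tested (0%) at an adjusted p of 0.05, against 552 (5.78%) with an unadjusted p below 0.05. Sham replicate 1 stood apart at low signals: 12.5% of its signals did not exceed 152.7, the floor to which lower signals were raised before taking log2, against 24.4% to 31.3% on the other arrays. Alb, albumin, a defining transcript of hepatocytes, had signals of 125084 to 199675 on the 6 arrays. As each array holds another mouse, the p-values measure the spread between mice.

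Of the 10 cathepsins, each read by whichever of its probe sets was brightest on average, 5 had a positive difference (50%), beside 49.2% of the 6897 genes tested. An unadjusted limma p below 0.05 was reached by 1 with the higher mean in BDL and 0 with the lower, where the shares over all genes were 3.42% and 2.28%. The groups did not overlap for 1 higher and 0 lower cathepsins, beside 6.32% and 4.26% of genes. With a log2 difference of at least 1 asked for as well, the count was 0 both ways, beside 1.39% and 0.942% of genes. The median log2 difference of the 10 was 0.02, and that of all genes tested was -0.0068. These shares are near the background, and with 10 genes a single one makes up 10%. By protease class, 4 of 7 cysteine cathepsins were positive, ranging from -0.51 to 0.92; the serine enzyme stood at -0.14, and the aspartic Ctsd at 0.06. The -0.12 listed for the aspartic Ctse comes from probe set 93861_f_at, which may not read that gene.

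**Figure D1:**
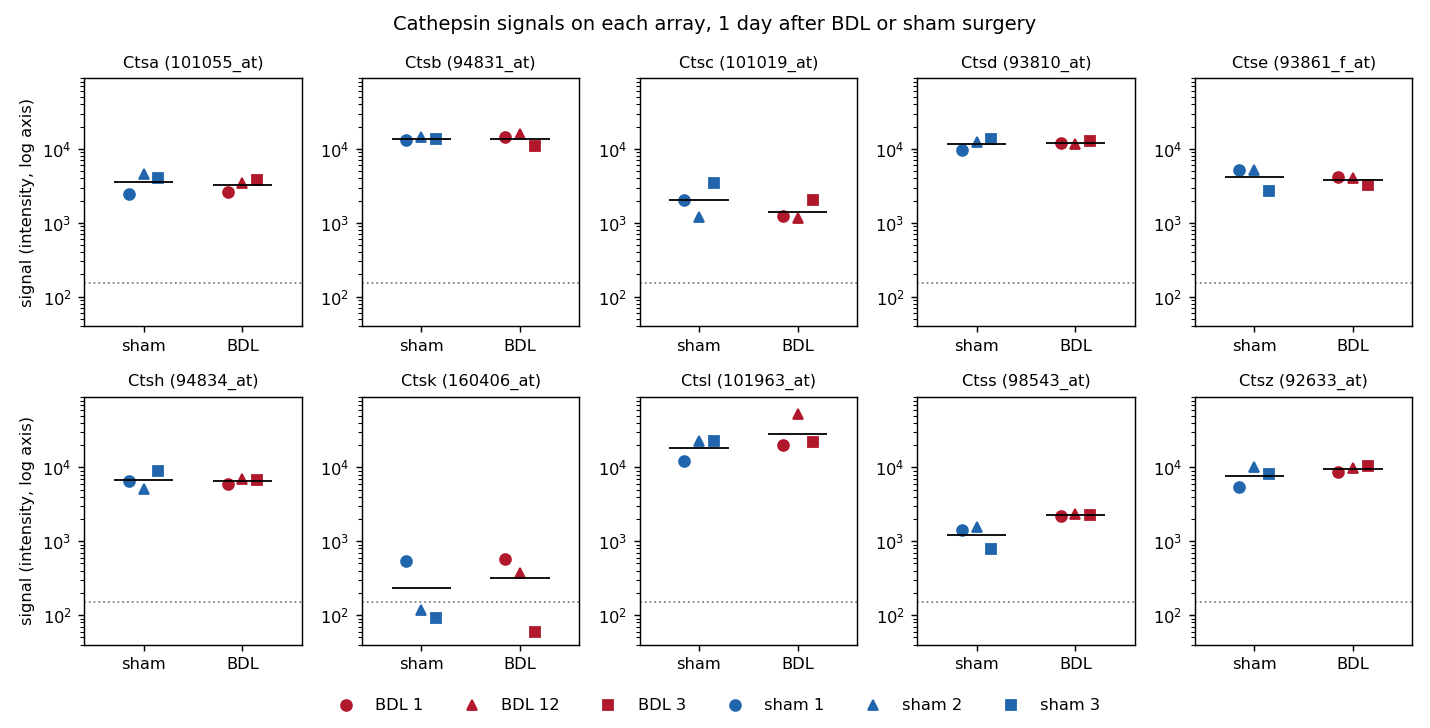
Signal of each cathepsin (linear intensity on a log axis) on the 3 sham arrays (blue) and the 3 BDL arrays (red), for the brightest probe set of each gene; the marker shape gives the replicate number, black lines are geometric means after the floor, and the dotted line is the floor of 152.7. The Ctss groups are apart, 2198 to 2332 in BDL against 791 to 1554 in sham, and the groups overlap for the other 9 genes.

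For 5 of the 10 genes as listed, Ctsa, Ctsb, Ctsd, Ctsh and Ctse, limma's 95% interval of the difference lay within a 2-fold change in either direction, with bounds from -0.92 to 0.71 on the log2 scale. The share was 36.3% among all genes tested. Ctse is among the 5 through 93861_f_at, so its interval may not describe Ctse. Ctsb is among them through 94831_at. The intervals of its other tested probe sets reached beyond a 2-fold change, -1.46 to 0.72 for 92256_at and -0.35 to 2.03 for 95608_at. For Ctsc, Ctsk, Ctsl, Ctss and Ctsz the interval reached beyond a 2-fold change on at least 1 side, so a change of that size was neither shown nor bounded by these arrays.

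**Figure D2:**
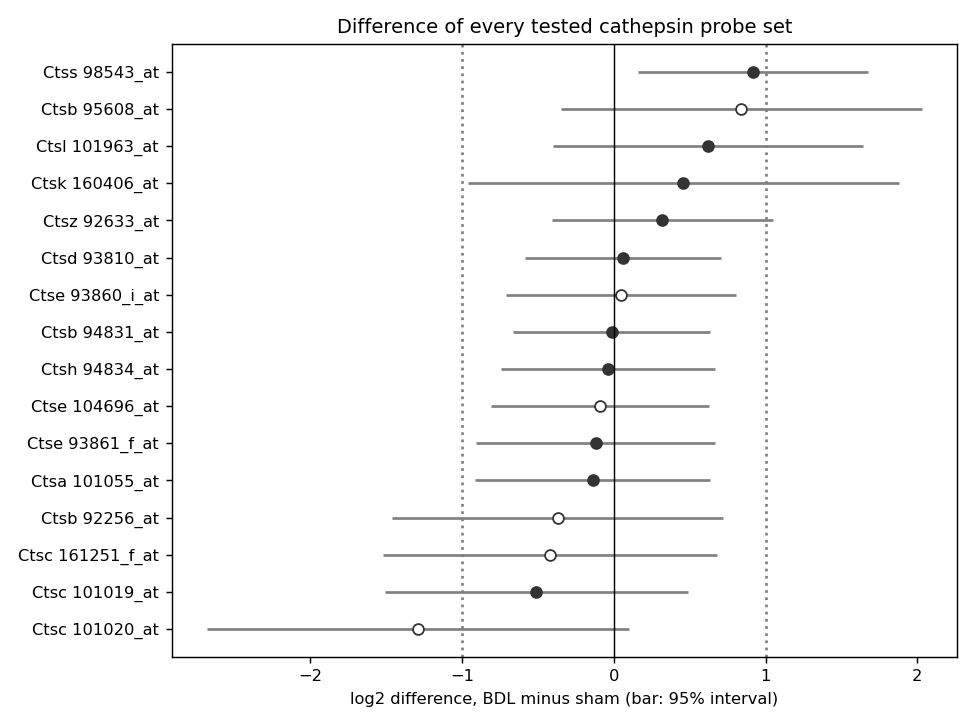
Log2 difference, BDL minus sham, of the 16 tested cathepsin probe sets (point) with limma's 95% interval (bar); filled points mark the probe set that represents its gene, and dotted lines mark a 2-fold difference. Only the interval of Ctss, from 0.16 to 1.68, lies on one side of 0, and the lowest point is the Ctsc probe set 101020_at at -1.29.

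Promoter sequence was set beside these values, since several lysosomal genes are known to share a site for the transcription factor TFEB, the CLEAR element, whose centre is CACGTG. RefSeq windows (GRCm38.p6) from 250 bases before to 50 after an annotated start were matched for 7 of the 10 genes, Ctsa with 2 starts, which made 8 windows. CACGTG, which reads the same on both strands, was found in 3 of the 8 windows, those of Ctsd, Ctsl and the second start of Ctsa, against 7.15% of all 32851 windows of 300 bases. The stretches are shown because they carry that match, in capitals, in the direction of the gene, with positions counted from 0 at the start:
Ctsa second start, position -12, chr2:164833749-164833778, plus strand: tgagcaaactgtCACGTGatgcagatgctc
Ctsa second start, position 5, chr2:164833766-164833795, plus strand: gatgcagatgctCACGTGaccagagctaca
Ctsd, position -98, chr7:142387908-142387937, minus strand: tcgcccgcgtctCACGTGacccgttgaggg
Ctsd, position -245, chr7:142388048-142388077, minus strand: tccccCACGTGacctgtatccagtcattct
Ctsl, position -236, chr13:64370739-64370768, minus strand: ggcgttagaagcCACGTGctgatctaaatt

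The genes that hold CACGTG did not share a direction: Ctsl differed by 0.62, Ctsd by 0.06 and Ctsa by -0.14. The match is a description of letters and not a binding site. The window of Ctsl, 64370471 to 64370770 on the minus strand, lies inside the annotated gene, which spans 64361890 to 64370772. Its match, counted as -236 from the start used, is thus not upstream of the gene. The window of the second Ctsa start also lies inside its gene.

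Ctss lies on chromosome 3 at 95526786 to 95556405, 17398 bases beyond the end of Ctsk, with 1 annotated gene between them. Its 250 upstream bases are shown because Ctss is the cathepsin whose groups did not overlap, together with the match that begins at its start. Capitals mark GAGGAA, the core bound by the myeloid factor PU.1, on either strand, and the core of the interferon response element, GAAA repeated after a gap of 2 bases, on either strand:
Ctss, chr3:95526536-95526785, plus strand: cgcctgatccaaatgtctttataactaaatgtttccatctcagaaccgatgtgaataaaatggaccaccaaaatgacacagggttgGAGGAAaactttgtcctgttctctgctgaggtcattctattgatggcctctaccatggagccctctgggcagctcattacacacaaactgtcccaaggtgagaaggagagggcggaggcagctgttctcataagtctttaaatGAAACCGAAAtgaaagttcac
Ctss, position 0, chr3:95526774-95526803, plus strand: atgaaagttcacTTCCTCattgtggatgct

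GAGGAA was present in 28.3% of all windows and in 3 of the 8 cathepsin windows, those of Ctsc, Ctsk and Ctss. These genes did not share a direction: Ctsc differed by -0.51, Ctsk by 0.46 and Ctss by 0.92. The repeated GAAA was present in 3.44% of windows and, among the cathepsins matched, only in that of Ctss, at position -21. The matches of both searches do not overlap there. All of them are descriptions of letters and not binding sites, and a link to the Ctss difference was not tested.

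Ctss had signals of 2198, 2332 and 2258 in BDL replicates 1, 12 and 3 and of 1399, 1554 and 791 in sham replicates 1, 2 and 3. The lowest BDL array was thus above the highest sham array, and the BDL signals lay close together (2262 ± 67.5 against 1248 ± 403 in sham; SD, n = 3 each). The difference of 0.92 had a limma 95% interval of 0.16 to 1.68, an unadjusted p of 0.0234 and an adjusted p of 0.832 over all probe sets. It lay at the 96.5th percentile of the differences of tested probe sets. Without sham replicate 3, the array with the lowest Ctss signal, it was 0.62 (limma unadjusted p = 0.0719), and with any other single array left out it was 0.89 to 1.10. The unadjusted p was also above 0.05 without BDL replicate 1 (0.0534), 12 (0.0559) or 3 (0.0597), by limma.

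Ctss is abundant in macrophages, so their markers are set beside it. Of 22 listed markers 20 were on the array and 17 were tested; 13 had a positive difference and the median was 0.40, which was 0.69 without BDL replicate 12 and 0.27 to 0.52 without any other single array. An unadjusted limma p below 0.05 was reached by 2 in the direction of BDL and 0 in the other, beside 3.42% and 2.28% of all genes, and no marker of the 17 was called after adjustment. Their summed signal was 19074 to 41444.5 in BDL and 9141 to 16330 in sham, with Cd14 alone at 29692 on BDL replicate 12. Summed without Cd14, BDL replicate 12 fell below sham replicate 1, so the sums of the groups then overlapped. The mean of the markers' centred log2 signals was 0.33, -0.03 and 0.59 on BDL replicates 1, 12 and 3. It was 0.02, -0.18 and -0.73 on sham replicates 1, 2 and 3. Sham replicate 3 was therefore the lowest array for both Ctss and the marker list. BDL replicate 12 was the highest for Ctss and stood below BDL replicates 1 and 3 and sham replicate 1 for the list. Sham replicate 3 was also lowest for the neutrophil, lymphocyte, cholangiocyte, endothelial, stellate cell and MHC class II lists, at -0.24 to -0.70. For hepatocyte markers it was the highest array, at 0.44, and for erythroid markers it was not the lowest. By brightest probe set, the smallest unadjusted limma p belonged to Cd14 at 2.61 (SE 1.02) and Tyrobp at 1.10 (SE 0.47). C1qa followed at 0.99 (SE 0.47) and Cd68 at 0.89 (SE 0.44), and of these only Tyrobp had groups apart. The brightest and another probe set differed in sign for C1qb (-0.29, 1.77), Laptm5 (0.34, -0.73), Msr1 (0.63, -0.41) and Csf1r (0.40, -0.07). Of the defining markers, Clec4f, a lectin of Kupffer cells, differed by 0.85 (SE 0.54) and Adgre1, the F4/80 antigen, by -0.19 (SE 0.52), both with overlapping groups. The probe sets of Ptprc, Marco and Fcer1g were not tested. In whole liver, a change in the number of cells of a type and a change in RNA per cell cannot be told apart. The part of macrophage content in the Ctss difference was not tested.

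Partners of Ctss in MHC class II antigen processing were measured too. All 8 listed genes were tested, 5 had a positive difference and the median was 0.18 (0.03 to 0.25 with 1 array left out, lowest without BDL replicate 1), with 0 below an unadjusted p of 0.05 and 0 called after adjustment. Cd74, the invariant chain that Ctss cleaves, had signals of 1705, 1560 and 1889 in BDL and 1603, 1019 and 1109 in sham. It differed by 0.49 (SE 0.30), and its lowest BDL array, replicate 12, was below sham replicate 1. H2-Eb1, a class II beta chain, differed by 0.48 (SE 0.39), H2-Ab1 by 0.37 (SE 0.43) and H2-DMa, a chain of the peptide loading factor, by -0.89 (SE 0.52), with overlapping groups for each.

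Ctsl, a cysteine endopeptidase of lysosomes in most cells, had signals of 20027, 52396 and 22032 in BDL replicates 1, 12 and 3 and of 12144, 22854 and 22916 in sham replicates 1, 2 and 3. BDL replicate 12 stood far above and sham replicate 1 below the other 4 arrays, which lay between 20027 and 22916. The mean log2 difference was 0.62 (SE 0.45; limma adjusted p = 0.842), with overlapping groups. It was 0.18 without BDL replicate 12 and 0.32 without sham replicate 1, so the value depended on both arrays.

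Ctsz, a carboxypeptidase known from immune cells, had signals of 8650, 9737 and 10302 in BDL and 5433, 9992 and 8225 in sham. Sham replicate 1 was the lowest, and sham replicate 2 was above 2 of the 3 BDL arrays. The difference was 0.32 (SE 0.32; limma adjusted p = 0.880), and without sham replicate 1 it was 0.07. Sham replicate 1, with its raised low signals, was the lowest array for 4 of the 10 cathepsins.

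Ctsk, the collagen-degrading cathepsin of osteoclasts, had signals of 580, 371 and 58.5 in BDL and 544, 117 and 92.8 in sham. Both groups thus held arrays above and below the floor, which 3 of the 6 arrays exceeded. The difference was 0.46 (SE 0.62; limma adjusted p = 0.911), and it ranged from 0.03 without BDL replicate 1 to 1.07 without sham replicate 1. The value moved with the floor: a floor at the 10th percentile gave 0.37, one at the 40th gave 0.09, and an added constant of 50 in its place gave 0.34. Among stellate cell and fibroblast markers, another possible source of Ctsk, 6 of 10 tested genes were positive with a median of 0.40, which became 0.06 when BDL replicate 1 was left out, 0.26 when sham replicate 3 was and 0.62 when BDL replicate 12 was. With an unadjusted limma p below 0.05 there were 3 positive and 0 negative ones, beside 3.42% and 2.28% of all genes, and 0 were called after adjustment.

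Ctsb had 4 probe sets, of which 3 were tested, and they differed in sign. The one with the highest signals, 94831_at, read 14663, 15748 and 11036 in BDL and 13072, 14599 and 13765 in sham, and its lowest and highest arrays were both BDL. It differed by -0.01 (SE 0.28), with a 95% interval of -0.66 to 0.63. Probe set 92256_at read 185, 647 and 306 in BDL and 301, 573 and 457 in sham, and differed by -0.37 (SE 0.48). Probe set 95608_at read 508, 1021 and 457 in BDL and 168, 626 and 393 in sham, and differed by 0.84 (SE 0.52). Its difference was 0.32 without sham replicate 1, its lowest array, and 0.48 without BDL replicate 12, its highest. The Pearson correlations between the 3 over the 6 arrays were 0.38 to 0.50. The fourth, 162271_f_at, was under the floor on every array and was not tested.

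Ctsc had 3 probe sets, and they followed each other across arrays, with Pearson correlations of 0.79 to 0.95 over the 6 arrays. Probe set 101019_at read 1221, 1143 and 2021 in BDL and 2003, 1181 and 3464 in sham, and differed by -0.51 (SE 0.44). Probe set 101020_at read 916, 384 and 1548 in BDL and 2408, 947 and 3497 in sham, and differed by -1.29 (SE 0.61; limma unadjusted p = 0.0647, adjusted p = 0.832), the lowest of the cathepsin probe sets. Its BDL replicate 3 was above sham replicate 2, so the groups overlapped. The third, 161251_f_at, read 176, 155 and 261 in BDL and 205, 153 and 547 in sham, near the floor, and differed by -0.42 (SE 0.49). Sham replicate 3 was the highest array for each of the 3. Without it the differences were -0.12 and -0.89 for the first pair, and the third turned to 0.12. The difference of 101020_at was -0.75 without BDL replicate 12, its lowest array, and -1.83 without sham replicate 2 (limma unadjusted p = 0.0156, adjusted p = 0.684). Among neutrophil markers, cells in which Ctsc activates granule proteases, 5 of 12 tested genes were positive with a median of -0.11, which ranged from -0.26 without sham replicate 3 to 0.12 without sham replicate 1; 0 were called after adjustment. S100a9, a subunit of calprotectin, differed by 1.49 (SE 0.59) and Elane, a granule elastase, by -0.74 (SE 0.39), with overlapping groups for both.

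**Figure D3:**
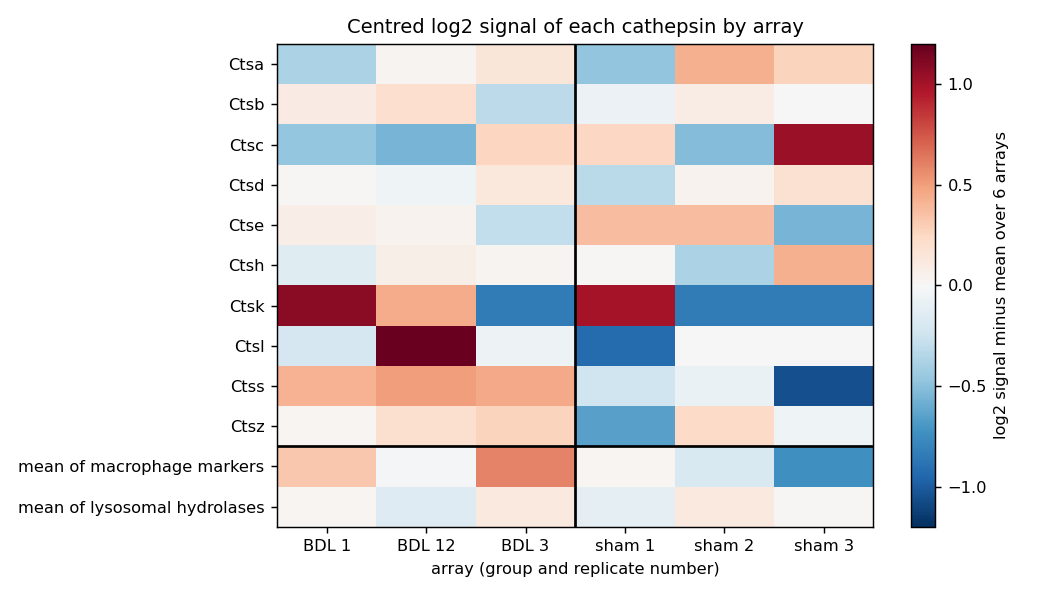
Log2 signal of each cathepsin minus its mean over the 6 arrays (colour, from blue below to red above the mean), by array, with the means of the macrophage markers and of the lysosomal hydrolases in the lowest rows; the vertical line parts BDL from sham. Ctss is above its mean on the 3 BDL arrays and lowest on sham replicate 3 (-1.06), Ctsl is highest on BDL replicate 12 (1.19), and Ctsc is highest on sham replicate 3 (1.04).

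Ctsd, the main aspartic protease of lysosomes, had signals of 12010, 11522 and 12967 in BDL and 9528, 12288 and 13545 in sham. The BDL arrays lay within the range of the sham arrays, and the difference was 0.06 (SE 0.28). Ctsh, an aminopeptidase, read 5951, 6907 and 6731 in BDL and 6644, 5072 and 8855 in sham. Here too the sham range enclosed the BDL arrays, and the difference was -0.04 (SE 0.31). Ctsa, a serine carboxypeptidase that also protects beta-galactosidase and neuraminidase in the lysosome, read 2600, 3457 and 3742 in BDL and 2433, 4546 and 4064 in sham, again within the sham range, and differed by -0.14 (SE 0.34). The limma adjusted p was 0.954 to 0.989 for these 3 genes.

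Ctse, an aspartic protease of stomach lining and immune cells, was read by 3 probe sets that cannot be taken as one measurement. Probe set 104696_at, made from accession AJ009840, read 43.7, 191 and 166 in BDL and 252, 125 and 41.7 in sham, around the floor, and differed by -0.09 (SE 0.32). Probe sets 93860_i_at and 93861_f_at were both made from another accession, M17327; the letters i and f mark, in Affymetrix's naming, an incomplete probe set and one whose probes are shared by related sequences. What M17327 is was not settled here; it may be the sequence of an endogenous retrovirus, so these probe sets may not read Ctse at all. Their signals were 1703 to 2827 and 2698 to 5134. They differed by 0.05 (SE 0.33) and -0.12 (SE 0.35), and had a Pearson correlation of 0.84 with each other and of 0.17 and 0.45 with 104696_at over the 6 arrays.

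**Figure D4:**
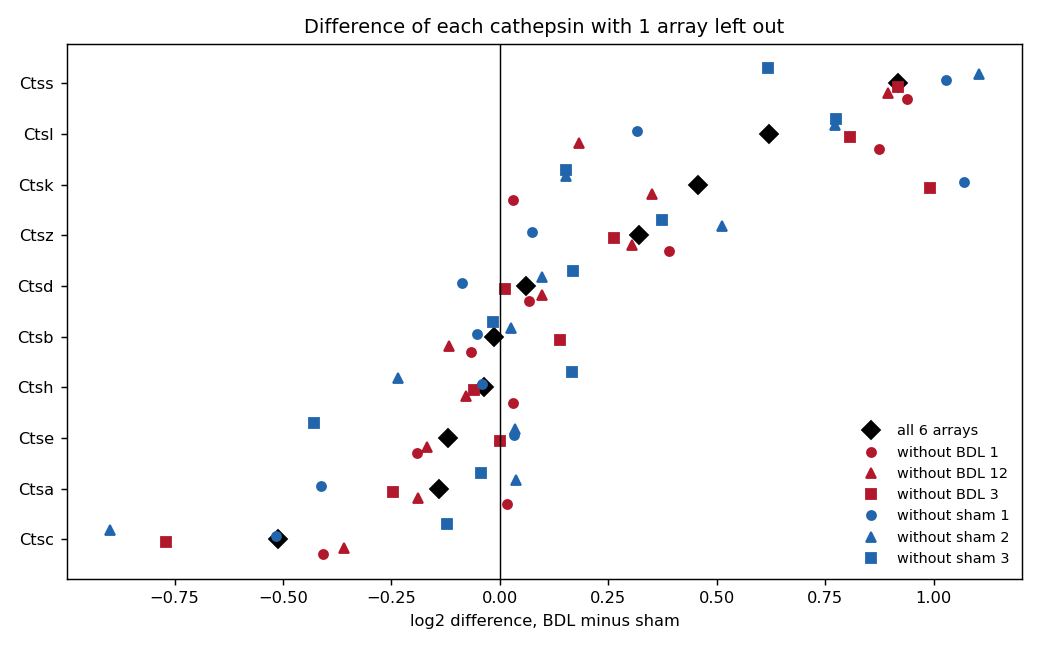
Log2 difference, BDL minus sham, of each cathepsin with all 6 arrays (black diamond) and with 1 array left out (red, a BDL array; blue, a sham array; the shape gives its number). Ctss stays between 0.62 and 1.10 and Ctsc between -0.90 and -0.12, while Ctsa, Ctsb, Ctsd, Ctse and Ctsh take both signs.

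The cathepsins did not vary as one group across the 6 mice. Of 45 pairs of genes, 22 had a Pearson correlation above 0 over the 6 arrays and 6 above 0.5, with a median of -0.01. Of all pairs, the highest was 0.81 between Ctsc and Ctsh, both highest on sham replicate 3. The lowest was -0.93 between Ctsa and Ctsk, where Ctsk was at the floor on 3 arrays. Ctsc and Ctss stood at -0.77, as the array with the highest Ctsc had the lowest Ctss. These values share the 6 arrays and their scaling, and are given as a description. Single arrays were highest for different genes: BDL replicate 12 and sham replicate 3 for 3 cathepsins each, sham replicate 2 for 2, BDL replicates 1 and 3 for 1 each and sham replicate 1 for 0.

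Other genes of the lysosome were measured beside them. Of 41 listed hydrolases and luminal proteins, 27 were on the array and 26 were tested: 14 had a positive difference, the median was 0.11, and 0 were called after adjustment. The median turned to -0.09 with BDL replicate 3 left out and to -0.06 with sham replicate 1 left out, and was 0.03 and 0.19 when BDL replicate 1 or 12 was dropped. With an unadjusted limma p below 0.05 there were 0 positive members and 1 negative one, beside 3.42% and 2.28% of all genes. That one was Neu1, the sialidase that Ctsa holds in its lysosomal complex, at -1.09 (SE 0.44), with signals of 534, 314 and 618 in BDL and 1711, 951 and 610 in sham. Its groups overlapped only through BDL replicate 3 and sham replicate 3. Gaa, the lysosomal alpha-glucosidase, had all BDL signals (6371 to 7775) below all sham signals (10056 to 10171) and differed by -0.55 (SE 0.27). Lgmn, legumain, which processes cathepsin precursors, differed by 0.77 (SE 0.42), and Hyal2, a hyaluronidase, by 0.79 (SE 0.42), of which Hyal2 had groups that did not overlap. In this list the groups were apart for 2 higher genes, Hyal2 and Psap (0.26, SE 0.26), and 1 lower, Gaa. Over all genes the shares were 6.32% and 4.26%. The limma adjusted p was 0.832 for each of Neu1, Gaa, Lgmn and Hyal2.

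Of 26 listed lysosomal membrane and proton pump genes, 21 were tested, 15 were positive, 1 of them and 0 negative ones had an unadjusted limma p below 0.05, beside the same shares of all genes, and 0 were called after adjustment. The median was 0.12, and -0.01 without sham replicate 1. Cd63, a tetraspanin of late endosomes, had signals of 1783, 6541 and 2810 in BDL and 574, 2319 and 488 in sham, with overlap, and differed by 1.89 (SE 0.67; limma adjusted p = 0.832). Its highest array was BDL replicate 12, as for Ctsl. Lamp2, a major lysosomal membrane glycoprotein, differed by -0.45 (SE 0.31), with all BDL signals (10847 to 18018) below all sham signals (18302 to 21444). In this list the groups were apart for 0 higher and 1 lower gene, beside 6.32% and 4.26% of all genes. Of 16 listed genes of lysosomal sorting and its transcription factors, 8 were tested and 3 were positive, with a median of -0.10 and 0 called after adjustment. That median was positive without BDL replicate 12 (0.17), BDL replicate 3 (0.05) or sham replicate 3 (0.15), and reached -0.25 without BDL replicate 1. Vps26a, a retromer subunit that recycles sorting receptors, differed by -0.57 (SE 0.28), and Rab7, a GTPase of late endosomes, by 0.32 (SE 0.27). The groups were apart for both, 1 higher and 1 lower of the 8, beside the same shares of all genes. The probe sets of M6pr, a mannose 6-phosphate receptor, and of Tfeb exceeded the floor on 2 arrays and were not tested.

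Of 14 listed cathepsin inhibitors, 6 were on the array and 4 were tested, 3 of them positive with a median of 0.22 (0.10 without sham replicate 2, 0.12 without BDL replicate 3) and 0 called after adjustment. Cstb, stefin B, an inhibitor inside cells, differed by 0.42 (SE 0.32), and Cst3, the secreted cystatin C, by -0.10 (SE 0.28). Kng1, a kininogen with cystatin domains, differed by 0.03 (SE 0.34), and Ctla2b, which resembles a cathepsin propeptide, by 0.62 (SE 0.50). The groups overlapped for each of the 4. Among the other cathepsins, Ctsf differed by -0.19 (SE 0.29), with signals of 2693, 2050 and 2013 in BDL and 2368, 3000 and 2342 in sham.

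**Figure D5:**
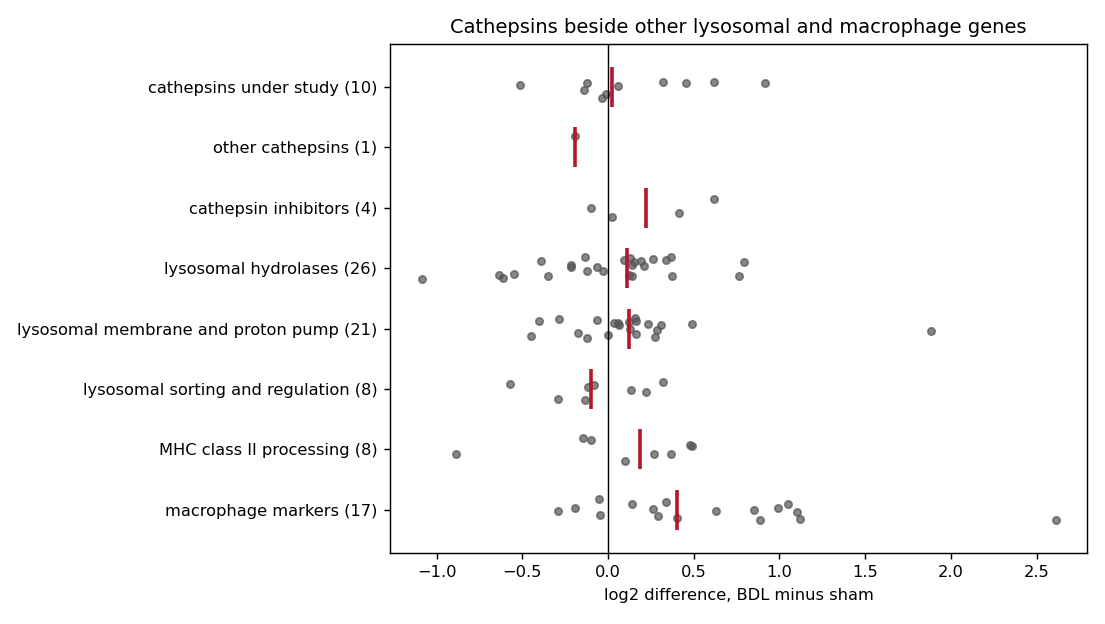
Log2 difference, BDL minus sham, of every tested gene (grey point) in the cathepsins and in related lists, with the number of genes in brackets and the median as a red line. The medians lie between -0.19 and 0.40, and the highest points are Cd14 at 2.61 among macrophage markers and Cd63 at 1.89 among membrane genes.

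Transcripts known from other cell types were measured as well. Lymphocyte markers had 2 of 9 tested genes positive with a median of -0.77, which was -0.27 without sham replicate 1, -0.40 without sham replicate 2 and -1.09 without sham replicate 3. On sham replicate 1 their mean centred log2 signal was 0.87, the highest of the 6 arrays. Hepatocyte markers had a median of -0.01 over 11 genes, endothelial markers 0.24 over 11, cholangiocyte markers 0.16 over 4 and erythroid markers -0.30 over 4. With 1 array left out in turn these 4 medians ranged, in the same order, from -0.15 (without BDL replicate 12) to 0.25 (without sham replicate 3), from 0.05 (without BDL replicate 1) to 0.63 (without BDL replicate 12), from -0.10 (without sham replicate 3) to 0.44 (without sham replicate 1) and from -0.54 (without BDL replicate 12) to 0.14 (without BDL replicate 3). In these 5 lists 0 genes were called after adjustment. Hepatocyte, lymphocyte and endothelial markers had 1 gene each with an unadjusted limma p below 0.05, and the other lists 0. The hepatocyte gene, Ttr, differed by -1.25 (SE 0.36), with all BDL signals (3576 to 4824) below all sham signals (6456 to 14576). The lymphocyte gene, Ms4a1, differed by -0.77 (SE 0.27) with groups apart, and by -0.28 in another probe set with overlap. The endothelial gene, Cdh5, was higher in BDL, with overlapping groups.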

How the data were processed

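The authors worked with version 3.1 of the GeneChip expression software and version 4.0 of MicroArray Suite, per the series' design text; its settings and scaling target: not given in the sources used here. Each deposited value is a linear intensity above 0, 1 per probe set and array. Whether background was subtracted is unknown, and detection calls were not used here. The median signal of BDL arrays 1, 12 and 3 was 525, 497 and 513, and that of sham arrays 1, 2 and 3 was 627, 515 and 431. Trimmed means differed by under 5%, so the deposited intensity was kept as scaled.

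Signals were raised to at least 152.7, the 25th percentile over the table, before taking log2. Probe sets above it on at least 3 of 6 arrays were tested: 9542 of 12422, leaving out 66 controls. BDL minus sham was fitted with limma 3.58.1 (R 4.3.3; lmFit, eBayes; 4 residual and 4.67 prior degrees of freedom) without covariates. P-values were adjusted by Benjamini-Hochberg over all probe sets, with a threshold of 0.05; SE is limma's moderated standard error, and intervals are 95% and unadjusted. The fit was tested on 10 simulated data sets with normal noise, in which 200 of the brighter probe sets were changed. It called 10.4% of 2-fold and 86.8% of 4-fold changes. For 8-fold and 16-fold changes it called 99.2% and 99.8%. On average 6.43% of its calls were false. The sources name no batch, and the number of arrays limits the precision. An exact permutation test of 3 against 3 cannot go below a two-sided p of 0.1.

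Names came from the platform annotation, brought through gene identifiers to RefSeq genes (GRCm38.p6): 10833 had 1 gene symbol, 396 several and 1193 none, and the last groups were not named. Genes, lists and tests were chosen with earlier results of these data known. The text names the 10 cathepsins with every probe set; up to 4 tested genes of each other list with the smallest unadjusted p, of which some are left out; and the 5 genes most correlated with the mean cathepsin profile. Clec4f, Adgre1, C1qb, Laptm5, Msr1, Csf1r, Psap and the untested genes were named after their values were seen. Alternatives tried were quantile normalization, other floors, an added constant, no filter, another variance model, a fold rule, leaving out each array, the replicate number as a block, and other choices of probe set.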

Additional observations from a re-analysis of the deposited data

How the results depend on the processing

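No cathepsin passed the adjusted threshold with limma under any alternative. Nor did any other probe set, except 3 with no filter on low signals, of Anxa3, Myc and Ate1 (named after their values were seen). On all 3 sham arrays their signals were under the floor, so their sham values were equal once raised to it. In the main limma fit they had the same differences and an adjusted p of 0.667, and the cause was not tested. By the fold rule, with no test, 231 probe sets and 0 cathepsins had groups apart and a mean log2 difference of at least 1. The median of the cathepsins, 0.02, was 0.11 with the mean over all probe sets of a gene, -0.0036 to 0.16 with each array left out in turn, and 0.02 with Ctse read by 104696_at alone, chosen after seeing the data.

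Of 206 values of single probe sets under alternatives, 187 kept their sign and 19 turned. Ctse 104696_at turned to 0.27 with quantile normalization, to 0.0054 with a floor at the 10th percentile and to 0.0049 with the added constant. With each array left out in turn, the ranges that crossed 0 were -0.41 to 0.038 for Ctsa, -0.85 to 0.053 for Ctsb 92256_at, -0.12 to 0.14 for Ctsb 94831_at, -0.80 to 0.12 for Ctsc 161251_f_at and -0.086 to 0.17 for Ctsd. They were -0.21 to 0.15, -0.15 to 0.26 and -0.43 to 0.036 for Ctse 104696_at, 93860_i_at and 93861_f_at, and -0.24 to 0.17 for Ctsh.

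With the replicate number as a block, in which only replicates 1 and 3 of both groups inform the difference, BDL replicate 12 and sham replicate 2 drop out. The block gave 651 probe sets at an unadjusted p under 0.05 against 552, 0 past the adjusted threshold, a cathepsin median of 0.02, a Ctss difference of 1.08 and a Ctsc 101020_at difference of -1.29 (limma unadjusted p = 0.0147, adjusted p = 0.646). Deviations of same-numbered arrays correlated at 0.21 and 0.25, those of BDL replicate 12 and sham replicate 2 at 0.29, and the other 6 pairs at -0.21 to -0.04. Deviations sum to 0 over the 3 arrays of a group, so these correlations are not independent. A positive correlation for a pair forces negative ones elsewhere. The pattern is a hint from the data and not from the design: the labels do not say that the numbers pair mice.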

Other observations

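The 5 genes outside the cathepsins whose log2 signals followed the mean centred cathepsin profile most closely were Utp4, Tmem199, Rapsn, Imp3 and Ociad1, with Pearson correlations of 0.97 to 0.99 over the 6 arrays. They were picked from 6897 genes over 6 arrays, and the profile itself ranged only from -0.11 on sham replicate 1 to 0.20 on BDL replicate 12. Utp4, a protein of ribosome assembly, had signals of 1630, 2413 and 1272 in BDL and 973, 1223 and 1061 in sham.

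Of the cathepsins outside the 10, the probe sets of Ctsg, a serine protease of neutrophil granules, and Ctsw, a cathepsin of cytotoxic lymphocytes, exceeded the floor only on sham replicate 1, at 240 and 275, and were not tested. Cts7, a placental cathepsin, was listed at 7.4 to 51 on the 6 arrays, under the floor on each.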
